A study of Homo sapiens with 18 samples.

Results

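Classical cadherins, tight junction proteins and genes of the epithelial-mesenchymal transition (EMT) were followed in the established human line Cal27, grown from a tongue carcinoma (oral squamous cell carcinoma, OSCC). The 9 genes, of 60683 rows in the count table, were taken by symbol: the cadherin genes CDH1, CDH3 and CDH2, the tight junction genes TJP1, TJP3 and CLDN1, the intermediate filament gene VIM, and the transcription factor genes SNAI2 and ZEB1. All 9 were found and all 9 had enough counts to test. Cells were grown for 24 hours in 6 groups of 3 libraries, which the labels call independent repetitions. These were glucose-deprived medium with CGRP (calcitonin gene-related peptide, recombinant and human, at 10 nM) or with control medium, high-glucose DMEM with 5 mM 2-deoxyglucose (2-DG) and CGRP or control medium, and high-glucose DMEM with CGRP or control medium. CGRP is a neuropeptide of sensory nerves, and 2-DG is taken up like glucose but cannot be used in glycolysis, and it also interferes with N-glycans. Sample titles carry TG or capTG. Their reading as CGRP or control comes from the design text, whereas the growth protocol names only different CM. A single line was used, and the cultures held no nerve or stromal cells by their labels.

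E-cadherin (CDH1) and P-cadherin (CDH3) hold epithelial cells together at adherens junctions, where their tails bind catenins, and N-cadherin (CDH2) is the cadherin that carcinoma cells often gain in EMT. Claudin-1 (CLDN1) builds the sealing strands of tight junctions, and the scaffold proteins ZO-1 (TJP1) and ZO-3 (TJP3) tie claudins to the actin cytoskeleton. SNAI2 (Slug) and ZEB1 are transcription factors that bind E-box sequences and repress CDH1 and other junction genes, and vimentin (VIM) is the filament protein of mesenchymal cells.

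The libraries held 28038260 to 32661768 counts and carried squamous markers. All 9 squamous markers were tested, and KRT5, a basal keratin, ran from 645 to 2400 CPM (counts per 1e+06 of the TMM-scaled library). The fibroblast markers COL3A1, PDGFRA, DCN, THY1 and FAP each stayed at or below 0.459 CPM in every library, as did the endothelial PECAM1 and KDR and the Schwann cell markers SOX10 and S100B. Of the 9 fibroblast markers COL1A1 (7.36 to 19.3 CPM) and PDGFRB (2.73 to 6.15 CPM) were present throughout. Libraries deprived CGRP 2 and 2-DG control 2 stood apart from their groups on the second principal component (7.39% of the variance), and in both the tenth of genes with the longest transcripts lay 0.46 and 0.32 below their group mates on the log2 scale. Where leaving out 1 or both of them changed a call of the 9 genes, a value without 1 or both is given. Of 104 values of listed genes named by rule, 103 passed with the same sign without both libraries. These values had been picked for a small p in the fit on all libraries, and more genes passed without both. With CGRP in 2-DG medium 5249 of all genes then passed, against 2216, so this count is no independent check. Changes are log2 fold changes ± SE from edgeR's quasi-likelihood F test over all 18 libraries, and a gene passed at a Benjamini-Hochberg adjusted p under 0.05 over 18159 genes. The spread of a gene was estimated over all 6 groups together, so an SE is not the spread of the groups compared alone. In such bulk samples fewer cells of a kind and less RNA per cell cannot be told apart.

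CLDN1, CDH1 and CDH3 had the highest levels and VIM and ZEB1 the lowest. Per kb of merged exon, the level in high-glucose control libraries was 227.1 CPM for CLDN1, 66.7 for CDH1, 66.3 for CDH3 and 11.2 for TJP1. SNAI2 followed at 8.55 CPM per kb, CDH2 at 4.03 and TJP3 at 2.42. VIM and ZEB1 lay far below, at 0.0764 and 0.0481 CPM per kb. VIM had 8 to 115 counts per library and ZEB1 6 to 31, so counting error alone is large for both.

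**Figure D1:**
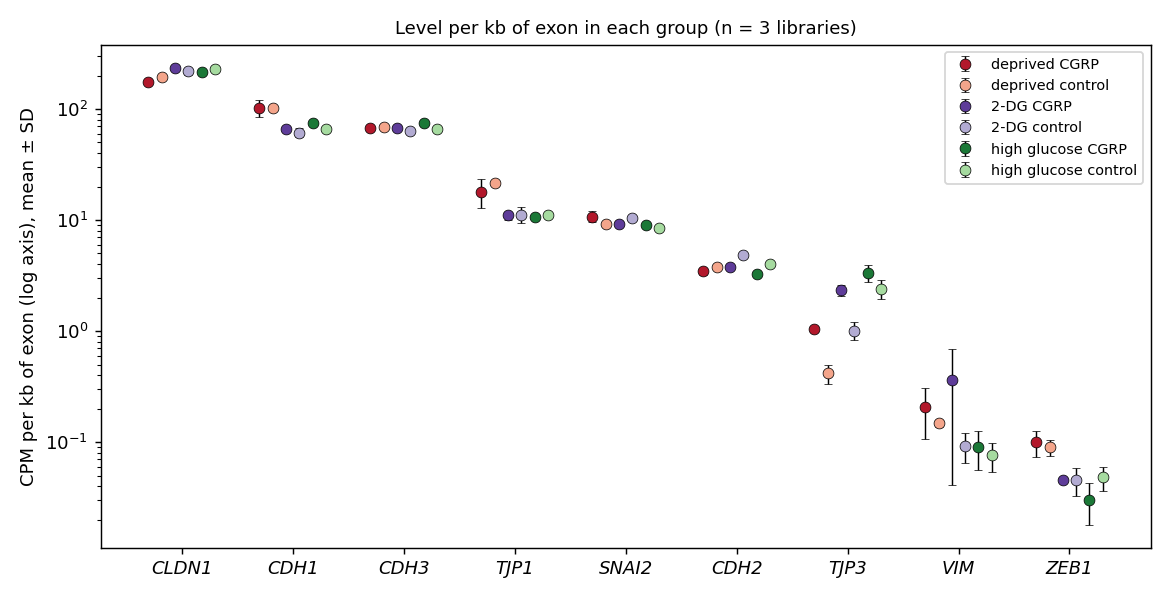
Level per kb of merged exon (CPM per kb, log axis) of the 9 genes in the 6 groups; points are means and bars SD over 3 libraries. CLDN1 is highest at 227.1 and ZEB1 lowest at 0.0481 CPM per kb in the high-glucose control, and TJP3 moves most between groups among the genes above 1 CPM.

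These promoters are shown because their genes moved in opposite directions with deprivation, and of each gene's windows the 1 that held the searched E-box is printed. Both are RefSeq windows of 250 bases before a transcription start on GRCh38.p14, searched on both strands for CACCTG, the E-box letters that SNAI2 and ZEB1 bind. Read on the opposite strand these letters are CAGGTG. The palindromes CACGTG, another E-box, and TGACGTCA, the cAMP response element, were searched as well, and none of these motifs overlapped another in the windows shown. Capitals mark the matches.
TJP1 chr15:29969050-29969299 (minus strand): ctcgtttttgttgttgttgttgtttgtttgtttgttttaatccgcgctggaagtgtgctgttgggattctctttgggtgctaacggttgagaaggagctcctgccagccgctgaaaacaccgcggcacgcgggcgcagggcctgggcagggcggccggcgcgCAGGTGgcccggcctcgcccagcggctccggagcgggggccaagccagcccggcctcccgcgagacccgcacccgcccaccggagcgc
TJP3 chr19:3721487-3721736 (plus strand): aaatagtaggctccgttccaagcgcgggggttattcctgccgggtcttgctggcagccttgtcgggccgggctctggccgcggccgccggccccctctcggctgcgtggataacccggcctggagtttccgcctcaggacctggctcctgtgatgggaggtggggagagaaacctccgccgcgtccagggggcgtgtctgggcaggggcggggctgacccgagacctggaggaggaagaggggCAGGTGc
In TJP1 the match CAGGTG lay at -88 to -83 from the start, and in TJP3 at -7 to -2. The bases after the printed TJP1 start lay in no transcript of GENCODE, the annotation used for exon lengths. No GENCODE exon overlapped the printed TJP1 window. The bases after each of the other TJP1 starts lay in a GENCODE transcript, and those windows held none of the motifs. The bases after the printed TJP3 start lay in a GENCODE transcript as well. The other TJP3 start, chr19:3708134-3708383, held CACGTG at -92 to -87 and no CACCTG. Promoter windows of 6 of the 9 genes were searched, 17 windows in all, and none of CDH1, CDH3 or SNAI2. Of the 17 windows 4 held CACCTG, namely 1 of 4 for TJP1, 1 of 2 for TJP3 and 2 of 7 for ZEB1. Of all 35116 windows of this length 17.5% held CACCTG, 6.34% CACGTG and 1.65% TGACGTCA. The counts do not say which start was used, and a match is no evidence of binding.

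CGRP changed 1 to 3 of the 9 genes in a medium, and glucose deprivation changed 5 without CGRP and 7 under it. With CGRP in deprived medium 1 of the 9 rose and 0 fell, where 13.0% of all tested genes passed, 6.38% up and 6.58% down. In 2-DG medium with CGRP 2 rose and 1 fell, against 12.2% of all genes, 5.31% up and 6.89% down. CGRP in high-glucose medium raised 1 and lowered 1, against 4.33% of all genes, 2.04% up and 2.29% down. The median log2 fold change of the 9 was 0.01, 0.09 and 0.08 in these comparisons, in the same order, and that of all genes 0.01, -0.01 and -0.01. The comparisons of CGRP with control in each medium share no libraries with each other, but those between media share the high-glucose libraries.

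Glucose deprivation moved most of the 9, as it moved most genes. Without CGRP 3 rose and 2 fell, where 60.6% of all genes passed, 31.0% up and 29.6% down. Under CGRP 4 rose and 3 fell, where 60.4% of all genes passed, 31.9% up and 28.5% down. Both shares of the 9 are near those of all genes. 2-DG without CGRP raised 2 and lowered 1, against 13.8% of all genes, 7.99% up and 5.85% down. With CGRP present, 2-DG changed 0 of the 9 by edgeR, against 2.39% of all genes, 1.52% up and 0.870% down. Of the 9, 4 had an unadjusted p under 0.05. DESeq2 passed 2 of the 9 and 701 of all 18159 genes. Without deprived CGRP 2 the edgeR count was 5, where 685 of all 18524 genes rose and 553 fell.

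The CGRP effect did not pass a test of difference between media for any of the 9. The effect in deprived medium minus that in high glucose gave 0 of 9 by edgeR (1.55% of all genes), with 2 at an unadjusted p under 0.05. DESeq2 passed 1 of the 9 and 523 of all 18159 genes. The effect in 2-DG medium minus that in high glucose gave 0 of 9 by edgeR (0.391% of all genes), with 2 at an unadjusted p under 0.05. Here DESeq2 passed 0 of the 9 and 220 of all 18159 genes.

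**Figure D2:**
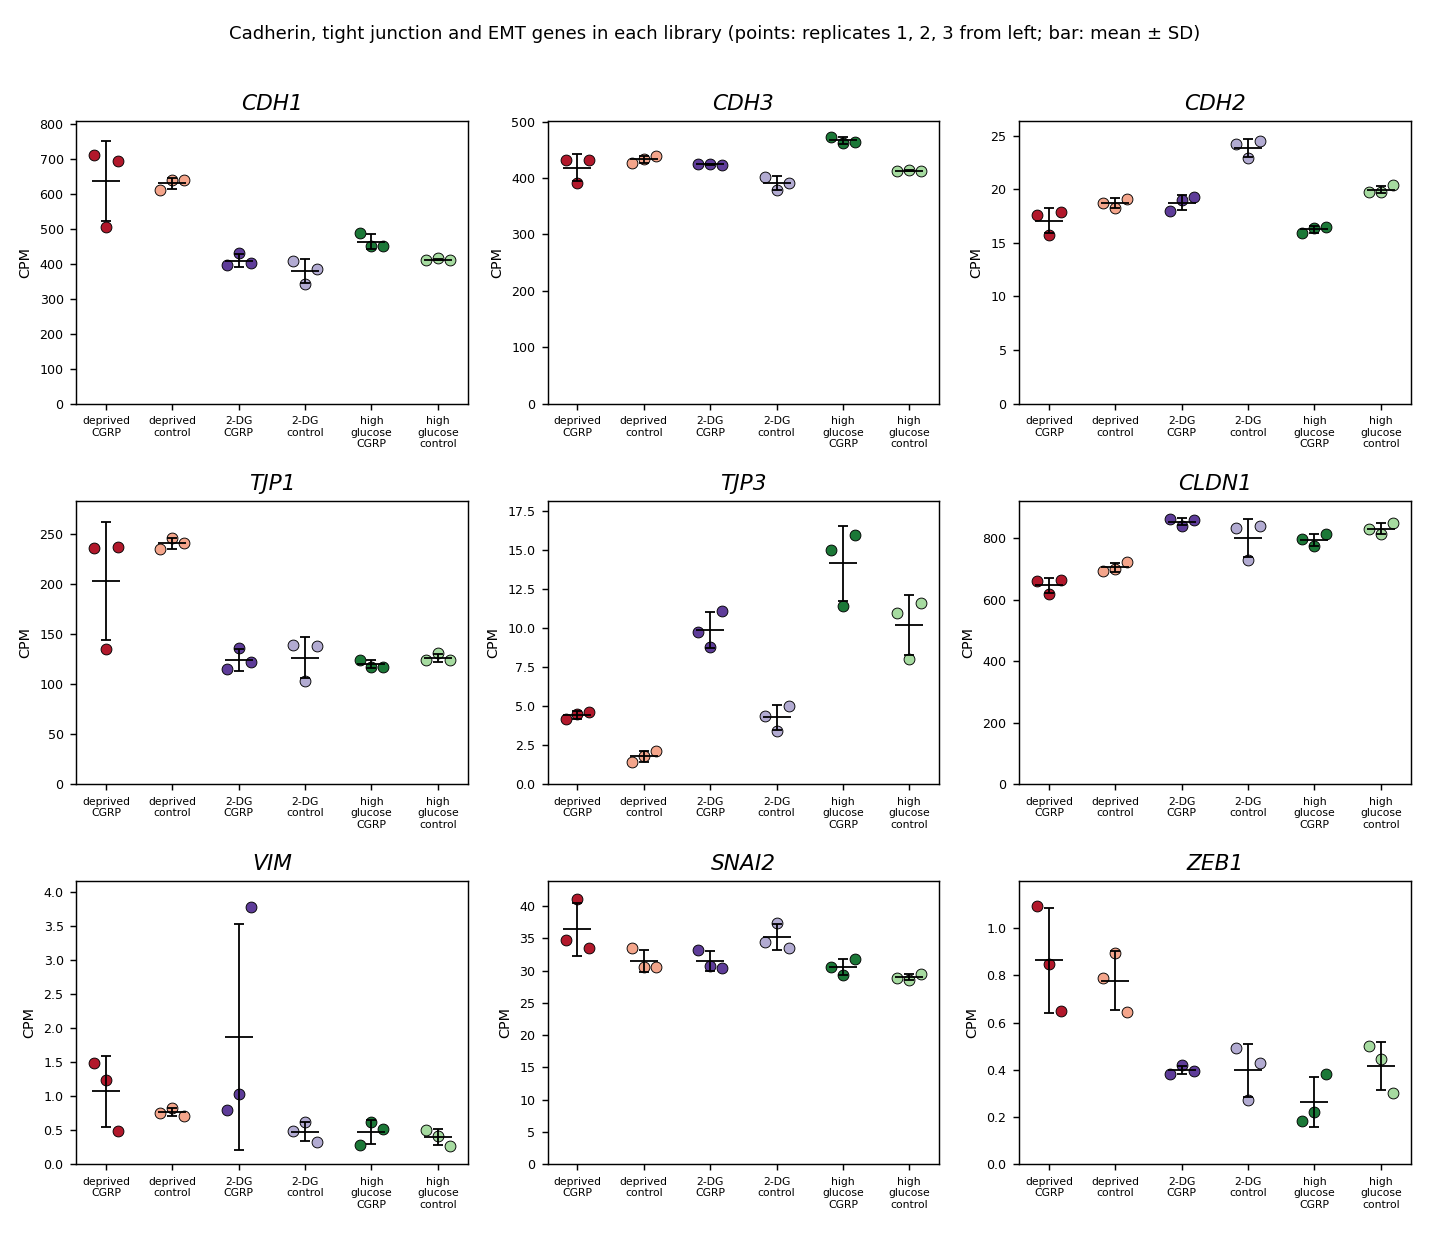
CPM of each gene in each library (points, replicates 1, 2 and 3 from left to right in a group) with the group mean and SD (bars), axes from 0. TJP3 is lowest in deprived control libraries (1.42 to 2.11 CPM) and highest in high-glucose CGRP libraries (11.5 to 16 CPM), and library deprived CGRP 2 lies below its group mates for CDH1 and TJP1.

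CDH1 (E-cadherin, ENSG00000039068, chromosome 16) was highest in deprived cells. Its level in deprived CGRP libraries was 709.9, 505.9 and 692.8 CPM and in deprived control libraries 611.4, 639.7 and 638.2 CPM. The 2-DG CGRP libraries had 394.9, 429.1 and 401.6 CPM and the 2-DG control libraries 408.2, 341.2 and 385.4 CPM. High-glucose CGRP libraries had 488.1, 450.2 and 450.2 CPM, and high-glucose control libraries 411.1, 414.7 and 409.3 CPM. Each deprived library lay above every library of the other media, and deprived CGRP 2 was the lowest of the deprived ones. CDH1 rose with deprivation by 0.61 ± 0.10 without CGRP (edgeR adjusted p = 5.5e-05) and by 0.46 ± 0.10 under CGRP (adjusted p = 8e-04). It kept both calls in all 26 alternatives run, and without deprived CGRP 2 the change under CGRP was 0.57.

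CGRP gave CDH1 a log2 fold change of 0.17 ± 0.10 in high glucose (edgeR adjusted p = 0.49), although the 3 CGRP libraries lay above the 3 control libraries. In deprived medium it was 0.01 ± 0.10 (adjusted p = 0.94), and the groups overlapped. Without deprived CGRP 2 and 2-DG control 2, CDH1 rose with CGRP in high glucose by 0.18 (adjusted p = 9.3e-05). In deprived medium it then rose by 0.16 (adjusted p = 0.00049), so the calls depend on whether these libraries are included. Neither library is in the high-glucose groups, but the SE rests on the spread in all 6 groups. A fit of only the high-glucose groups also passed the rise there (0.18, adjusted p = 2e-05). With 2-DG, CDH1 did not pass in either arm, at -0.12 ± 0.10 without CGRP and -0.18 ± 0.10 under CGRP. The value under CGRP passed without deprived CGRP 2 (-0.19, adjusted p = 0.042).

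CDH3 (P-cadherin, ENSG00000062038), the neighbour of CDH1 on chromosome 16, was the steadiest of the cadherins. It had 432.1, 390.5 and 432.9 CPM in deprived CGRP libraries and 426.2, 433.9 and 438.9 CPM in deprived control libraries. In 2-DG medium it had 424.9, 424.5 and 423.3 CPM with CGRP and 402.7, 379.4 and 391.3 CPM with control medium. The high-glucose CGRP libraries had 473.2, 462.3 and 464.5 CPM and the high-glucose control libraries 413.3, 413.8 and 412.7 CPM. Its group means differed by at most 1.19-fold, and the high-glucose CGRP libraries were above all others.

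CDH3 rose with CGRP in high glucose by 0.18 ± 0.05 (edgeR adjusted p = 0.048), close to the threshold. The call passed in 9 of 26 alternatives, with adjusted p from 4.1e-07 to 0.28 and a value of 0.16 to 0.19. It was lost without any 1 library of the high-glucose, deprived control or 2-DG CGRP groups, and without 2-DG control 1 or 3. With CGRP in 2-DG medium CDH3 was 0.12 ± 0.05 (adjusted p = 0.13), with no overlap of the groups, and it passed without deprived CGRP 2 (0.12, adjusted p = 0.019), without both libraries that stood apart (0.10, adjusted p = 0.0063) and with DESeq2 (0.14, adjusted p = 0.012). With 2-DG under CGRP it was -0.14 ± 0.05 (adjusted p = 0.17), which passed without deprived CGRP 2 (-0.15, adjusted p = 0.013). In deprived medium the CGRP value was -0.05 ± 0.05 (adjusted p = 0.54). The difference between the CGRP effects in deprived medium and in high glucose was -0.22 ± 0.07 (adjusted p = 0.13), and it passed without both libraries that stood apart (-0.18, adjusted p = 0.001) and with DESeq2 (-0.23, adjusted p = 0.0079). Under CGRP, CDH3 fell by 0.16 ± 0.05 with deprivation (adjusted p = 0.0093), and the fit of only the 2 groups lost this call at -0.19 (adjusted p = 0.092).

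CDH2 (N-cadherin, ENSG00000170558, chromosome 18) was lower with CGRP. Deprived CGRP libraries had 17.6, 15.7 and 17.9 CPM and deprived control libraries 18.7, 18.3 and 19.1 CPM. The 2-DG CGRP libraries had 17.96, 19.1 and 19.3 CPM, against 24.2, 22.9 and 24.5 CPM in 2-DG control libraries. In high glucose, CGRP libraries had 15.9, 16.4 and 16.5 CPM, against 19.7, 19.8 and 20.4 CPM in high-glucose control libraries. In each medium the 3 CGRP libraries lay below the 3 control libraries.

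With CGRP, CDH2 fell by 0.35 ± 0.06 in 2-DG medium (edgeR adjusted p = 0.00055), a call kept in all 26 alternatives, and by 0.29 ± 0.06 in high glucose (adjusted p = 0.0054), a call lost only with no filter on low counts (-0.29, adjusted p = 0.061). In deprived medium it was -0.13 ± 0.06 (adjusted p = 0.14), and this did not pass. The differences of the CGRP effect from that in high glucose were 0.16 ± 0.08 for deprived medium and -0.05 ± 0.08 for 2-DG medium (adjusted p = 0.45 and 0.92). 2-DG raised CDH2 without CGRP by 0.26 ± 0.06 (adjusted p = 0.0047). This call was lost with total-count scaling (0.20, adjusted p = 0.069) and with no filter on low counts (0.25, adjusted p = 0.052). Under CGRP the 2-DG value was 0.20 ± 0.06 (adjusted p = 0.072), and without deprived CGRP 2 it passed (0.19, adjusted p = 0.022). Deprivation without CGRP gave -0.09 ± 0.06 (adjusted p = 0.16), and this passed without deprived CGRP 2 (-0.12, adjusted p = 0.037) and with total-count scaling (-0.25, adjusted p = 0.0055).

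TJP1 (ZO-1, ENSG00000104067, chromosome 15) was higher in deprived cells. Deprived CGRP libraries had 236.1, 134.5 and 237.0 CPM and deprived control libraries 235.0, 246.1 and 240.8 CPM. The 2-DG CGRP libraries had 114.7, 135.3 and 121.4 CPM and the 2-DG control libraries 138.9, 102.4 and 137.4 CPM. High-glucose CGRP libraries had 124.3, 117.2 and 117.0 CPM, and high-glucose control libraries 123.8, 130.5 and 123.6 CPM. Deprived CGRP 2, with 134.5 CPM, stood far below its mates and within the range of the 2-DG libraries, and 2-DG control 2 was the lowest of all 18. TJP1 has merged exons of 11265 bases, within the tenth of longest genes, and the part of transcript length in these 2 low values was not tested.

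TJP1 rose with deprivation by 0.93 ± 0.16 without CGRP (1.91-fold, edgeR adjusted p = 9.7e-05) and by 0.76 ± 0.16 under CGRP (1.70-fold, adjusted p = 0.00064), and both calls held in all 26 alternatives. Without deprived CGRP 2 the value under CGRP was 0.96. CGRP gave -0.25 ± 0.16 in deprived medium, -0.03 ± 0.16 in 2-DG medium and -0.08 ± 0.16 in high glucose, and none passed. Without both libraries that stood apart the deprived value was -0.02, and TJP1 fell with CGRP in 2-DG medium by 0.16 (adjusted p = 0.0089). In that fit TJP1 also rose with 2-DG without CGRP, by 0.13 (adjusted p = 0.028), where the fit on all libraries gave 0.00 ± 0.16.

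TJP3 (ZO-3, ENSG00000105289, chromosome 19) moved most. With CGRP it had 4.13, 4.51 and 4.62 CPM in deprived medium, against 1.42, 1.76 and 2.11 CPM with control medium. In 2-DG medium it had 9.73, 8.79 and 11.1 CPM with CGRP, against 4.37, 3.42 and 5.01 CPM with control medium. In high glucose it had 15, 11.5 and 16 CPM with CGRP, against 10.95, 8.00 and 11.6 CPM with control medium. The CGRP and control libraries overlapped in high glucose only. Replicate 2 was the lowest of its group in high glucose and in 2-DG medium, and replicate 3 was the highest in all 6 groups. Each high-glucose CGRP library lay above the control library of the same number, but the labels do not say that equal numbers mark pairs.

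CGRP raised TJP3 by 1.33 ± 0.21 in deprived medium (2.51-fold, edgeR adjusted p = 0.00068) and by 1.21 ± 0.17 in 2-DG medium (2.31-fold, adjusted p = 0.00022). Both calls held in all 26 alternatives, over ranges of 1.20 to 1.49 and 1.08 to 1.34. In high glucose the value was 0.48 ± 0.16 (1.39-fold, adjusted p = 0.12), which did not pass, and without both libraries that stood apart it passed at 0.48 (adjusted p = 0.039). The CGRP effect minus that in high glucose was 0.85 ± 0.26 for deprived medium (adjusted p = 0.14) and 0.73 ± 0.23 for 2-DG medium (adjusted p = 0.26), and neither difference passed.

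TJP3 fell with deprivation by 2.53 ± 0.20 on the log2 scale without CGRP (to 0.173 of the high-glucose level, edgeR adjusted p = 1.1e-08) and by 1.68 ± 0.17 under CGRP (to 0.313, adjusted p = 3e-07). With 2-DG it fell by 1.25 ± 0.17 without CGRP (to 0.420, adjusted p = 0.00014). These calls held in all 26 alternatives. Under CGRP the 2-DG value was -0.52 ± 0.16 (adjusted p = 0.11), although the groups did not overlap, and without deprived CGRP 2 it passed at -0.53 (adjusted p = 0.044). The mean in 2-DG CGRP libraries, 9.88 ± 1.17 CPM, was close to the 10.2 ± 1.92 CPM of high-glucose control libraries (SD, n = 3), and the 2 groups overlapped.

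CLDN1 (claudin-1, ENSG00000163347, chromosome 3), the most abundant of the 9 per kb, was lower in deprived cells. Deprived CGRP libraries had 660.4, 618.9 and 663.0 CPM and deprived control libraries 694.2, 701.3 and 721.7 CPM. The 2-DG CGRP libraries had 863.3, 841.8 and 859.0 CPM and the 2-DG control libraries 832.8, 728.7 and 841.3 CPM. High-glucose CGRP libraries had 797.9, 775.8 and 813.0 CPM, and high-glucose control libraries 829.3, 815.5 and 850.4 CPM. The 6 deprived libraries were the lowest 6, and 2-DG control 2 was the next.

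CLDN1 fell with deprivation by 0.24 ± 0.06 without CGRP (edgeR adjusted p = 0.0018) and by 0.30 ± 0.06 under CGRP (adjusted p = 0.00026), in all 26 alternatives. CGRP gave -0.12 ± 0.06 in deprived medium (adjusted p = 0.17), 0.09 ± 0.06 in 2-DG medium and -0.06 ± 0.06 in high glucose, and none passed although the groups did not overlap in any medium. Without both libraries that stood apart, the fall in deprived medium passed at -0.08 (adjusted p = 0.026), and CLDN1 rose with 2-DG under CGRP by 0.09 (adjusted p = 0.0083).

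VIM (vimentin, ENSG00000026025, chromosome 10) was near the floor in every group. Its counts were 42, 32 and 15 in deprived CGRP libraries and 23, 24 and 21 in deprived control libraries. They were 23, 32 and 115 in 2-DG CGRP libraries, against 16, 18 and 10 in 2-DG control libraries. In high glucose, CGRP libraries had 9, 20 and 16 counts, and high-glucose control libraries 15, 13 and 8. The library 2-DG CGRP 3 held more VIM counts than any other, and the groups did not overlap in 2-DG medium.

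VIM rose with CGRP in 2-DG medium by 1.96 ± 0.54 (edgeR adjusted p = 0.026). Without 2-DG CGRP 3 the value was 0.93 (adjusted p = 0.22), and the call was also lost without 2-DG control 1 (1.99, adjusted p = 0.068) or 2-DG control 3 (1.76, adjusted p = 0.095). It was lost as well without both libraries that stood apart (2.18, adjusted p = 0.065), in a fit of only the groups compared (1.98, adjusted p = 0.13) and with no filter on low counts (1.97, adjusted p = 0.099). CGRP gave 0.46 ± 0.55 in deprived medium and 0.25 ± 0.70 in high glucose, and neither passed. 2-DG under CGRP gave 1.99 ± 0.54 (adjusted p = 0.071), which passed without 2-DG CGRP 1 (2.35, adjusted p = 0.039) or deprived CGRP 2 (1.98, adjusted p = 0.048) and was 0.96 without 2-DG CGRP 3. Deprivation under CGRP gave 1.16 ± 0.59 (adjusted p = 0.1), and it passed without deprived CGRP 3 (1.51, adjusted p = 0.04) or 2-DG CGRP 3 (1.16, adjusted p = 0.015). Deprivation without CGRP gave 0.95 ± 0.65 and 2-DG without CGRP 0.27 ± 0.70, and neither passed. A fit of only the 2 groups passed the deprivation value, at 0.92 (adjusted p = 0.0051).

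The 2-DG CGRP libraries also held leukocyte marker transcripts, 2 of 6 listed markers passing the filter on low counts. PTPRC, the pan-leukocyte marker CD45, had 15, 18 and 25 counts there, against 0, 0 and 1 in 2-DG control libraries and at most 1 in any other library. CD3E, a T cell receptor subunit, had 4, 6 and 10 counts, against 0, 1 and 0. Of genes chosen after their values were seen, GZMA, a granzyme of cytotoxic lymphocytes, had 31, 37 and 47 counts and GNLY 26, 28 and 40, and both had 0 or 1 in every other library. The 6 leukocyte markers together summed to 3.20 to 4.34 CPM with CGRP and 1.85 to 2.14 CPM with control medium, most of it CD14. In high glucose this sum was much the same, 3.03 to 4.71 CPM with CGRP and 2.19 to 2.40 CPM with control medium. In deprived medium it was 0.195 to 0.501 and 0.0345 to 0.0988 CPM. Vimentin is abundant in leukocytes, and their part in the VIM value was not tested. VIM-AS1, the antisense gene at this locus, had 1 to 13 counts per library, and the strand setting of the counting is not known.

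SNAI2 (Slug, ENSG00000019549, chromosome 8) was the better expressed of the EMT factors followed. Deprived CGRP libraries had 34.7, 41.2 and 33.5 CPM and deprived control libraries 33.5, 30.6 and 30.5 CPM. The 2-DG CGRP libraries had 33.2, 30.8 and 30.5 CPM and the 2-DG control libraries 34.5, 37.5 and 33.6 CPM. In high glucose, CGRP libraries had 30.6, 29.4 and 31.9 CPM, and high-glucose control libraries 28.9, 28.6 and 29.5 CPM. Both libraries that stood apart were the highest of their groups, and the group means spanned only 1.26-fold.

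SNAI2 rose with 2-DG without CGRP by 0.28 ± 0.07 (edgeR adjusted p = 0.019), and it lost the call without 2-DG control 2 (0.22, adjusted p = 0.086) or high-glucose control 1 or 2 (0.28 and 0.27, adjusted p = 0.061 and 0.067). Without both libraries that stood apart it passed at 0.22 (adjusted p = 0.00087). It rose with deprivation under CGRP by 0.25 ± 0.07 (adjusted p = 0.0075), and without deprived CGRP 2 this was 0.13 (adjusted p = 0.079) and with total-count scaling 0.11 (adjusted p = 0.11), whereas without both libraries that stood apart it passed at 0.13 (adjusted p = 0.028). It was also lost with no filter on low counts (0.21, adjusted p = 0.052) and in a fit of only the groups compared (0.21, adjusted p = 0.1). Deprivation without CGRP gave 0.12 ± 0.07 (adjusted p = 0.17). CGRP gave 0.21 ± 0.07 in deprived medium (adjusted p = 0.076), which passed without deprived CGRP 3 (0.28, adjusted p = 0.032) and was 0.12 without deprived CGRP 2. In 2-DG medium the CGRP value was -0.16 ± 0.07 (adjusted p = 0.19), which passed without deprived CGRP 2 (-0.16, adjusted p = 0.048), and in high glucose it was 0.08 ± 0.07.

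ZEB1 (ENSG00000148516, chromosome 10) had few counts and more of them in deprived cells. Its counts were 31, 22 and 20 in deprived CGRP libraries and 24, 26 and 19 in deprived control libraries. They were 11, 13 and 12 in 2-DG CGRP libraries and 16, 8 and 13 in 2-DG control libraries. High-glucose CGRP libraries had 6, 7 and 12 counts, and high-glucose control libraries 15, 14 and 9. All 6 deprived libraries lay above the other 12.

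ZEB1 rose with deprivation by 1.71 ± 0.30 under CGRP (edgeR adjusted p = 0.00012), a call kept in all 25 alternatives that tested it, and by 0.89 ± 0.28 without CGRP (adjusted p = 0.012). The call without CGRP was lost without high-glucose control 3 (0.71, adjusted p = 0.058) or deprived control 2 (0.75, adjusted p = 0.058). CGRP gave 0.15 ± 0.25 in deprived medium, -0.01 ± 0.32 in 2-DG medium and -0.67 ± 0.34 in high glucose, and none passed. With 2-DG, ZEB1 was 0.61 ± 0.34 under CGRP and -0.06 ± 0.31 without it. ZEB1-AS1, the antisense gene beside it, had 95 to 177 counts per library, more than ZEB1 itself, and without a known strand setting reads of the pair cannot be told apart.

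**Figure D3:**
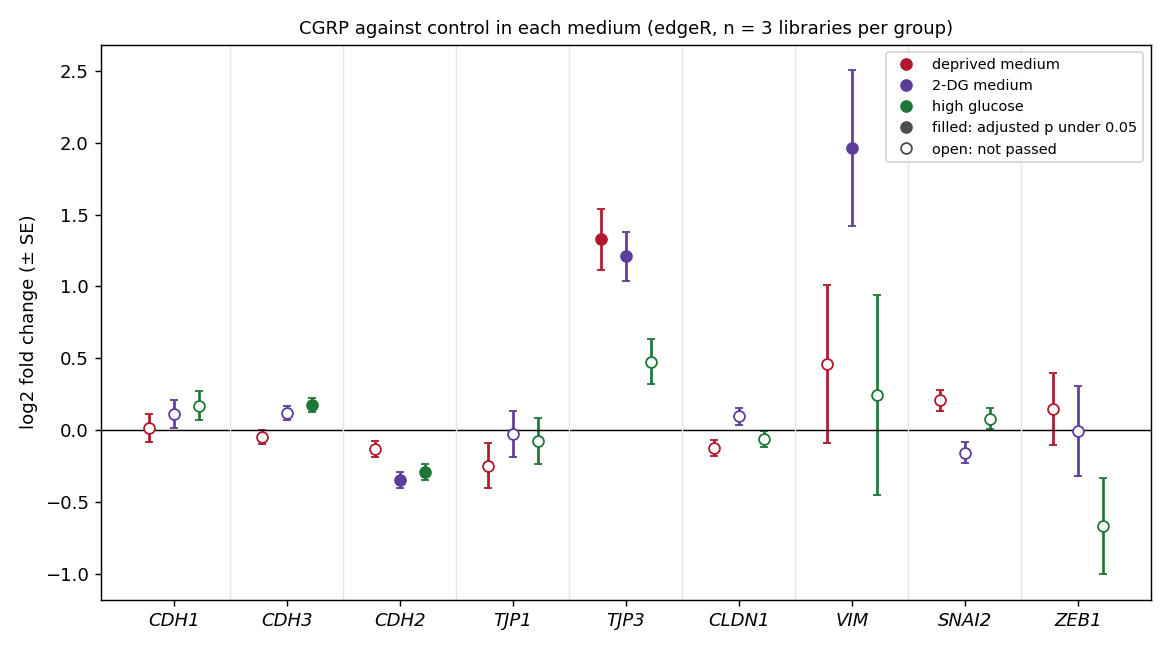
Log2 fold change (± SE) with CGRP against control for the 9 genes in deprived medium, 2-DG medium and high glucose; filled points passed at adjusted p under 0.05. TJP3 lies at 1.33, 1.21 and 0.48 in the 3 media, and CDH2 is below 0 in all of them.

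**Figure D4:**
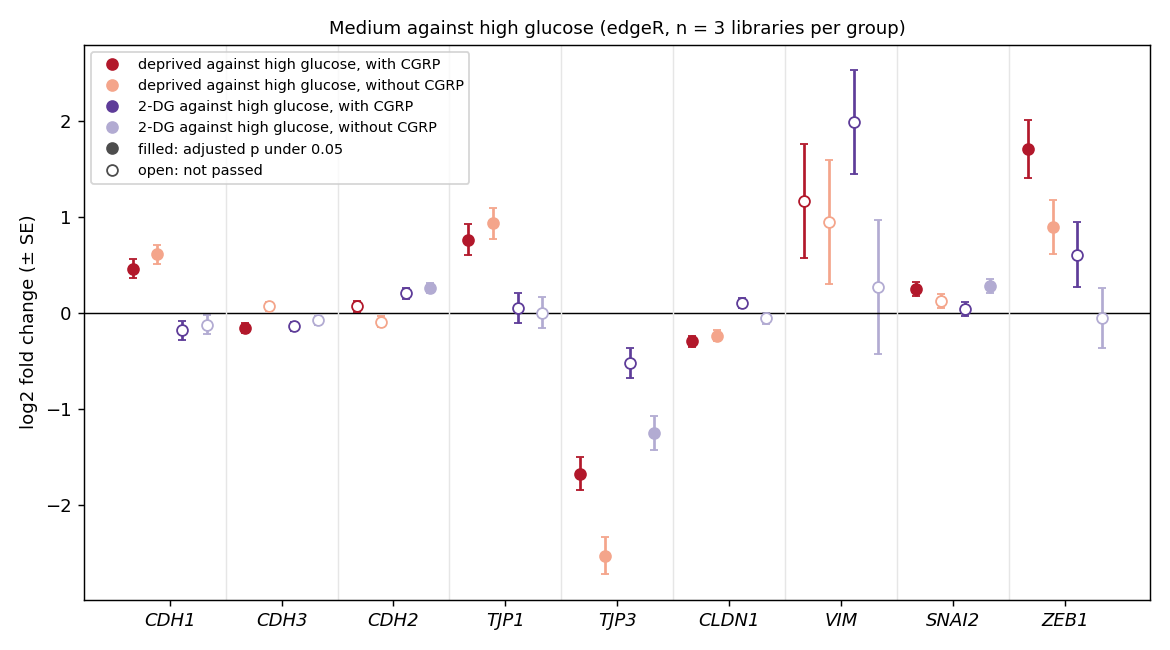
Log2 fold change (± SE) of deprived and of 2-DG medium against high glucose, with and without CGRP; filled points passed at adjusted p under 0.05. Deprivation raises CDH1 and TJP1 and lowers TJP3 and CLDN1 in both arms, and the fall of TJP3 without CGRP, 2.53, is the largest change.

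The catenins and nectins that partner these cadherins mostly fell in deprived cells. Of 13 tested adherens junction partners, 2 rose and 10 fell with deprivation without CGRP, with a median of -0.55 beside 0.02 for all genes, of which 31.0% rose and 29.6% fell. JUP (plakoglobin) fell by 0.60 ± 0.04 (261 ± 3.08 against 396 ± 4.88 CPM, edgeR adjusted p = 1.7e-09), and NECTIN4 by 1.18 ± 0.08 (adjusted p = 2.9e-09). CTNNA1 (alpha-catenin) rose by 0.35 ± 0.05 (adjusted p = 5.4e-06). Under CGRP again 2 rose and 10 fell, where 31.9% of all genes rose and 28.5% fell, with CTNNB1 (beta-catenin) among the falls by 0.61 ± 0.04 (adjusted p = 2e-09). With 2-DG without CGRP 0 rose and 4 fell, where 7.99% of all genes rose and 5.85% fell. NECTIN4 fell by 0.85 ± 0.08 (adjusted p = 5.1e-06). Without both libraries that stood apart 7 fell, and 2648 of all 18476 genes fell, against 1062 of 18159 with all libraries.

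With CGRP the partners rose or did not pass. In 2-DG medium 5 of 13 rose and 0 fell (median 0.14, beside -0.01 for all genes, of which 5.31% rose and 6.89% fell), NECTIN4 by 0.59 ± 0.08 (19.3 ± 0.627 against 12.8 ± 1.28 CPM, edgeR adjusted p = 0.00014). JUP rose in all 3 media, by 0.23 ± 0.04 in deprived medium (adjusted p = 0.0013), 0.22 ± 0.04 in 2-DG medium (adjusted p = 0.0016) and 0.19 ± 0.04 in high glucose (adjusted p = 0.013). In deprived medium 2 rose and 0 fell, where 6.38% of all genes rose and 6.58% fell. In high glucose 1 rose and 0 fell, where 2.04% of all genes rose and 2.29% fell. Without both libraries that stood apart 4 rose in each. Of all 18476 genes then tested, 2240 and 1688 rose, against 1159 and 371 of 18159 with all libraries.

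Among the other cadherins, CDH5 (VE-cadherin, best known from endothelium) had the largest changes. Of 8 tested, 3 rose and 5 fell with deprivation in each arm (median -1.33 without CGRP, beside 0.02 for all genes), where 60.6% of all genes passed without CGRP and 60.4% under CGRP. CDH5 fell by 3.46 ± 0.11 without CGRP (2.07 ± 0.408 against 22.8 ± 0.433 CPM, edgeR adjusted p = 2.2e-13), and CDH13 (T-cadherin) rose by 0.93 ± 0.09 (adjusted p = 1.9e-07). CGRP raised CDH5 by 0.69 ± 0.13 in deprived medium (adjusted p = 0.0023), by 0.83 ± 0.09 in 2-DG medium (39.7 ± 1.5 against 22.3 ± 1.97 CPM, adjusted p = 9.7e-06) and by 0.85 ± 0.09 in high glucose (41.3 ± 0.694 against 22.8 ± 0.433 CPM, adjusted p = 1.7e-05). The endothelial markers PECAM1, KDR, TEK and TIE1 stayed at or below 0.347 CPM in all libraries, and VWF at or below 2.38 CPM.

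Claudins and other tight junction genes moved in both directions in deprived cells. Of 10 other claudins tested, 3 rose and 4 fell without CGRP (median 0.02, as for all genes), and 4 rose and 4 fell under CGRP, where 60.6% and 60.4% of all genes passed. CLDN7 rose by 1.82 ± 0.11 without CGRP (60.9 ± 2.45 against 17.2 ± 0.271 CPM, edgeR adjusted p = 7e-10), and CLDN4 fell by 0.94 ± 0.08 (95.6 ± 3.20 against 183 ± 1.86 CPM, adjusted p = 2e-08). CLDN16, of which an annotated exon overlaps the start of CLDN1, fell by 1.29 ± 0.08 (adjusted p = 8.9e-10), and how reads of the overlap were counted is not known. With CGRP, CLDN4 rose by 0.37 ± 0.08 and CLDN7 by 0.39 ± 0.11 in deprived medium (adjusted p = 0.0049 and 0.024).

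Of 17 other tight junction and polarity genes, 7 rose and 4 fell with deprivation without CGRP (median -0.02, beside 31.0% up and 29.6% down over all genes). Without both libraries that stood apart 7 rose and 8 fell of 18, and 6674 rose and 6703 fell of all 18476 genes. OCLN, the strand protein occludin, rose by 2.32 ± 0.12 (59.5 ± 3.24 against 11.9 ± 0.314 CPM, edgeR adjusted p = 1e-10). CGN, the cytoplasmic plaque protein cingulin, fell by 1.74 ± 0.08 (13.4 ± 0.999 against 44.8 ± 1.09 CPM, adjusted p = 2.4e-11). With 2-DG without CGRP, CGN fell by 0.51 ± 0.08 (adjusted p = 0.00034), 1 of 2 falls and 0 rises, where 5.85% of all genes fell and 7.99% rose. CGRP raised CGN by 0.32 ± 0.08 in deprived medium (adjusted p = 0.02) and by 0.53 ± 0.08 in 2-DG medium (45.2 ± 1.90 against 31.4 ± 2.26 CPM, adjusted p = 3e-04). These 4 values of CGN have the signs of those of TJP3, and comparisons between media share libraries with those of CGRP.

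**Figure D5:**
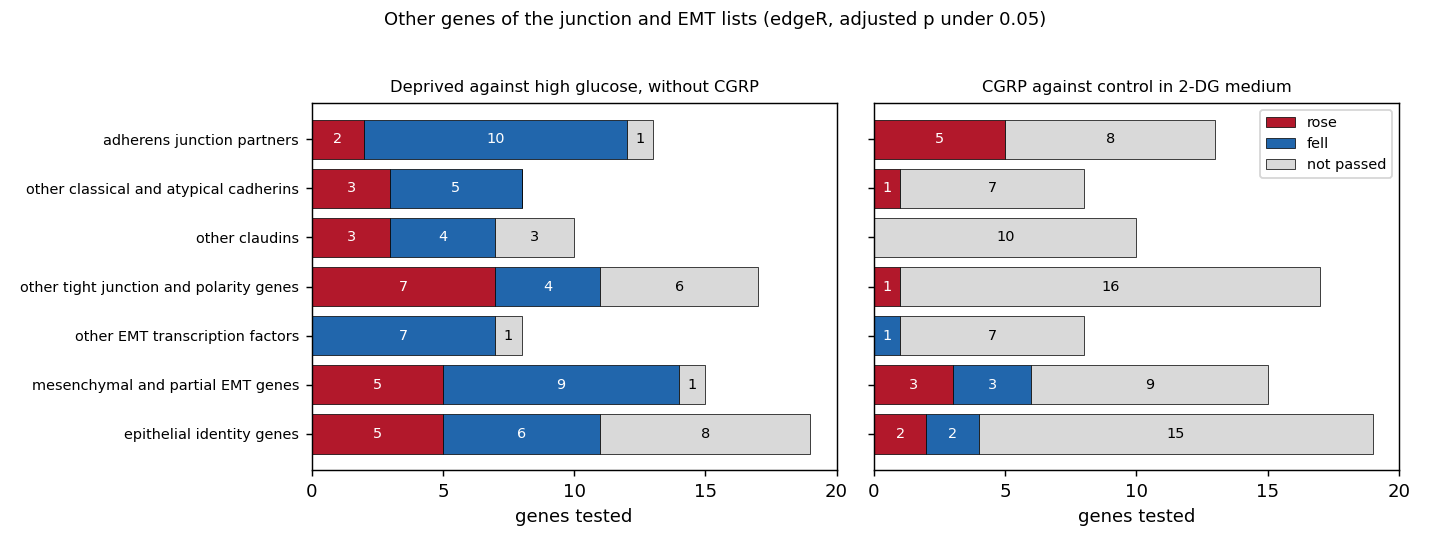
Number of tested genes in each list of other junction and EMT genes that rose, fell or did not pass (stacked bars), for deprivation against high glucose without CGRP (left) and for CGRP against control in 2-DG medium (right). With deprivation 10 of 13 adherens junction partners and 7 of 8 EMT factors fell, and with CGRP in 2-DG medium most genes of each list did not pass.

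Of the other EMT transcription factors 7 of 8 fell in deprived cells, where ZEB1 rose. Of 8 tested, 0 rose and 7 fell without CGRP, with a median of -1.06 beside 0.02 for all genes, of which 29.6% fell. Under CGRP 0 rose and 7 fell, where 28.5% of all genes fell. Without both libraries that stood apart 8 fell in each, and 6703 and 6451 of all 18476 genes fell. TCF4 (E2-2) fell by 2.67 ± 0.24 (0.541 ± 0.0907 against 3.48 ± 0.503 CPM, edgeR adjusted p = 8.1e-08) and TWIST1 by 1.32 ± 0.15 (1.40 ± 0.0859 against 3.48 ± 0.232 CPM, adjusted p = 8.2e-07) without CGRP. SNAI1 (Snail), named after its values were seen, fell by 1.25 ± 0.21 (adjusted p = 8.1e-05), while its paralog SNAI2 did not pass.

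Mesenchymal and partial EMT genes moved both ways. Of 15 tested, 5 rose and 9 fell with deprivation without CGRP (median -0.62), where 31.0% of all genes rose and 29.6% fell. AXL, a receptor kinase of invasive cells, rose by 1.31 ± 0.05 (375 ± 8.20 against 151 ± 2.37 CPM, edgeR adjusted p = 8.7e-13), and PDPN (podoplanin) fell by 1.91 ± 0.05 (17.9 ± 0.323 against 67.4 ± 1.49 CPM, adjusted p = 8.3e-15). With CGRP 3 rose and 1 fell in deprived medium, and 3 rose and 3 fell in 2-DG medium and in high glucose alike, where 13.0%, 12.2% and 4.33% of all genes passed. Without both libraries that stood apart 6 rose and 2 fell in deprived medium and 6 rose and 4 fell in 2-DG medium. Of all 18476 genes in that fit, 2240 rose and 3067 fell in deprived medium, and 2276 rose and 2973 fell in 2-DG medium. CGRP lowered AXL by 0.46 ± 0.05 and CD44, a hyaluronan receptor, by 0.34 ± 0.04 in 2-DG medium (adjusted p = 9e-06 and 9.3e-05), and by 0.31 ± 0.05 and 0.27 ± 0.04 in high glucose (adjusted p = 0.00096 and 0.0019). In these media AXL and CD44 had the same sign as CDH2. PDPN rose with CGRP in all 3 media, by 0.19 ± 0.05 in deprived medium (adjusted p = 0.012), 0.16 ± 0.04 in 2-DG medium (adjusted p = 0.021) and 0.17 ± 0.04 in high glucose (adjusted p = 0.039). CGRP raised S100A4, a calcium-binding protein of motile cells, by 1.43 ± 0.19 in deprived medium (5.45 ± 1.14 against 2.01 ± 0.386 CPM, adjusted p = 0.00011) and by 0.65 ± 0.14 in 2-DG medium (adjusted p = 0.006).

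Genes of epithelial identity moved both ways. Of 19 tested, 5 rose and 6 fell with deprivation without CGRP (median 0.05), near the 60.6% of all genes that passed, and 8 rose and 8 fell under CGRP, where 60.4% passed. ESRP1, an epithelial splicing factor, rose by 1.08 ± 0.05 (303 ± 6.82 against 144 ± 3.73 CPM, edgeR adjusted p = 4.2e-12) without CGRP. ELF3, an epithelial ETS factor, fell by 1.40 ± 0.06 with deprivation and by 0.84 ± 0.06 with 2-DG (adjusted p = 3.8e-12 and 1.2e-07). With CGRP 4 rose and 2 fell in deprived medium, 2 rose and 2 fell in 2-DG medium, and 2 rose and 1 fell in high glucose (13.0%, 12.2% and 4.33% of all genes passed). Without both libraries that stood apart 6 rose in 2-DG medium and 6 in high glucose, where 2276 and 1688 of all 18476 genes rose. CGRP raised ELF3 by 0.94 ± 0.06 in deprived medium, 0.78 ± 0.06 in 2-DG medium and 0.59 ± 0.06 in high glucose (adjusted p = 9e-08, 2.4e-07 and 8.1e-06). It lowered KLF4 by 0.52 ± 0.05 in 2-DG medium and 0.32 ± 0.06 in high glucose (adjusted p = 1e-05 and 0.0021). In deprived medium ESRP2 fell with CGRP by 0.38 ± 0.09 (adjusted p = 0.012). EPCAM, an epithelial adhesion molecule named after its values were seen, did not pass with CGRP in any medium or with deprivation or 2-DG in either arm.

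The genes whose levels tracked the 9 most closely over the 18 libraries were named by Pearson's r of log2 CPM among 12491 candidates, as a description over libraries that share media and depth. CDH1 was close to MON1B (0.980), and TJP1 closest to CLIP1 and XIAP (both 0.995). TJP3 was closest to FBXO32 (0.984), a ubiquitin ligase subunit, and BMF (0.982), a BH3-only cell death protein. CDH2 was closest to DUSP7 (0.979), a phosphatase that acts on ERK, and NOLC1 (0.938). CLDN1 was closest to UACA (0.969) and CAND1 (0.965), SNAI2 to SEC61B (0.913) and CKAP4 (0.912), ZEB1 to DNER (0.9) and TMEM106B (0.896), and CDH3 to UNC5B (0.865) and SKAP2 (0.864). VIM had the weakest likeness, 0.772 to RCN1P2 and 0.757 to NPM1P27, both pseudogenes. Among the 9 themselves CDH1 and TJP1 were closest (0.923), and TJP1 and TJP3 lay opposite (-0.747). Both CDH1 and TJP1 were low in the libraries that stood apart, and the part of these libraries in r was not tested.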

How the data were processed

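RNA from 18 cultures of Cal27 was sequenced. The authors deposited 1 table of raw counts for 60683 Ensembl gene IDs. Reads were aligned with HISAT2 2.0.4, and hg19 and GRCh38 are both named, per the submitters' processing notes; which counter, annotation and strand setting were used is not given in the sources used here. Symbols were found for 60370 IDs, and exon lengths came from GENCODE 29 (known for 98.7% of tested genes). Promoters came from RefSeq, GRCh38.p14, matched by symbol.

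Genes passing filterByExpr on the 6 groups (minimum count 10, total 15) had TMM factors and went into the robust quasi-likelihood F test of edgeR 4.0.16 under R 4.3.3 (a coefficient for each group, 12 residual degrees of freedom), with Benjamini-Hochberg adjustment over 18159 genes. The test was checked on simulated data with the same spread for every gene and no library standing apart, so the check does not cover such libraries. Library totals were 28038260 to 32661768 counts. Errors cover the spread between these cultures only, estimated for each gene over all 6 groups together. Likeness used log2 CPM with a prior count of 2.

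The 9 genes and all lists were chosen with earlier results of these data known. Named listed genes are at most the 2 rises and 2 falls of smallest adjusted p per list and comparison and only where their average log2 CPM was 1 or more; others are said to be chosen later. Alternatives were DESeq2 1.42.0, RLE and total-count scaling, no filter and a stricter filter (over 1 CPM in 3 libraries, mean over 2 CPM), only the groups compared, a replicate block, each library left out, and both libraries that stood apart left out. Counts of the lists and values of named listed genes without those 2 libraries were added after seeing the data. Some genes are not reported here.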

Additional observations from a re-analysis of the deposited data

How the results depend on the processing

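Over the comparisons of the 9 genes, 81 values were recomputed, and 0 called values changed sign. The number of the 9 that passed moved by more than 1.5 times as follows. With CGRP in high glucose it was 2, and 1 with total-count scaling, 0 with no filter and 4 without both libraries that stood apart. With CGRP in deprived medium it was 1, and 2 with total-count scaling, the stricter filter or DESeq2 and 3 without both libraries. With 2-DG under CGRP it was 0, and 1 with the replicate block, 4 in the fit of only the groups compared, 5 without both libraries and 2 with DESeq2. For the CGRP effect in deprived medium minus that in high glucose it was 0, and 1 with the replicate block, without both libraries or with DESeq2. Leaving out 1 library gave 1 to 2 for CGRP in deprived medium and in high glucose, 2 to 5 for CGRP in 2-DG medium, 4 to 6 and 6 to 8 for deprivation without and under CGRP, 2 to 3 and 0 to 5 for 2-DG without and under CGRP, and 0 for both differences of the CGRP effect. The cause was not tested.

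The replicate block was no paired design: of 45 correlations of same-numbered libraries only 6 exceeded 0.1 (range -0.185 to 0.636), and 3 of these 6 were deprived CGRP with 2-DG control (0.367, 0.636 and 0.329), the groups of the libraries that stood apart, which no comparison sets against each other. With the replicate block TJP3 passed with CGRP in high glucose (0.48, adjusted p = 0.018), with 2-DG under CGRP (-0.51, adjusted p = 0.019) and for the difference in deprived medium (0.85, adjusted p = 0.027), and CDH3 in high glucose did not (0.18, adjusted p = 0.051).

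Counts over all genes moved more. For CGRP in deprived medium, 2-DG medium and high glucose they were 2354, 2216 and 787, and 5307, 5249 and 3520 without both libraries, 141, 1194 and 3653 in fits of only the groups compared. With no filter they were 1463 in deprived medium and 474 in high glucose. For 2-DG without CGRP the count was 2513, with 5997 without both libraries and 1551 with only the groups compared. For 2-DG under CGRP it was 434, with 3598, 2363, 246 (no filter) and 701 (DESeq2). For the difference of CGRP effects in deprived medium it was 282, with 2500, 164, 163 and 523 in the same order, and in 2-DG medium 71, with 1092, 142, 30 and 220. Leaving out 1 library gave 1282 to 2726, 1447 to 3853 and 353 to 1565 genes for CGRP in deprived medium, 2-DG medium and high glucose, 1593 to 4274 and 157 to 1238 for 2-DG without and under CGRP, and 162 to 582 and 13 to 324 for the differences. Total-count scaling put the median of all genes with deprivation without CGRP at -0.133, against 0.023 with TMM. It moved the share of passing genes that rose to 38.0% with deprivation without CGRP (main 51.2%), 41.5% under CGRP (52.8%), 38.1% with 2-DG without CGRP (57.7%), 51.1% under CGRP (63.6%), 66.2% with CGRP in deprived medium (49.2%), 57.0% in 2-DG medium (43.5%), and 70.5% and 44.4% for the differences in deprived and 2-DG medium (58.2% and 31.0%). VIM and ZEB1, with at most 115 and 31 counts per library, are limited by depth.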
